A study of Heliconius melpomene malleti and Heliconius melpomene plesseni with 96 samples.

Results

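WntA, the patterning gene of the Ac colour pattern locus of Heliconius melpomene, was measured on the arrays of this series by 2 of the 12832 features. One, called here the scaffold set, is the predicted gene HE668478:450400-483854, named by its scaffold, start and end, and was measured by 9 probes. The other, called the walk set, is AC_WALK:450400-483854, with equal start and end in the sequenced AC walk, and was measured by 3 probes. Both features were chosen by these identifiers, not by a cut on their values, though earlier results of these data were known. Both were found on every array. The features carry no gene names and no annotation of exons, and their build was not given in the sources used here, so the name WntA rests on the position alone and was not tested against sequence. The span is 33455 bases long.

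RNA of each sample was labelled with Cy3 and hybridised to 1 array. The groups are Heliconius melpomene plesseni and Heliconius melpomene malleti, butterfly races of a single species with unlike wing patterns, each sampled as eye, hindwing, distal forewing and proximal forewing of pupae on days 1, 3, 5 and 7. Each of the 32 groups had 3 replicates, treated here as independent, 96 arrays in all. A replicate is named here by the number in its label, which runs from 1 to 96. No transgene, treatment or mutation is given for any group, and the labels do not say whether sections on different arrays came from one animal.

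WntA encodes a secreted ligand of the Wnt family, glycoproteins that bind Frizzled receptors on nearby cells and act on their gene expression and polarity. Fruit flies of the genus Drosophila have lost the gene, whereas butterflies have kept it. In Heliconius and other butterflies it is known for placing the borders of wing pattern elements, above all the black areas that frame the forewing band, and its transcript marks future pattern elements in the wing discs of the last larval stage and the young pupal wing.

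Values are log2 intensities, quantile-normalized over all arrays, so that every array has the same distribution, with a 25th percentile of 4.55, a median of 6.88 and a 95th percentile of 12.06. No deposited column says which features are above background. A comparison is said to pass where limma's adjusted p over the 12832 features was below 0.05. Before normalization the array medians ran from 22.98 to 376, and 12 arrays are held in doubt. Of these, 10 were dim, with a median log2 intensity under 5.5 (replicates 5, 8, 16, 21, 32, 34, 42, 55, 60 and 73). Replicates 55, 67, 69 and 73 had expression profiles closer to the other organ, wing or eye, of the same day than to their own, 2 of them among the dim arrays. The arrays in doubt include 1 of the 18 wing arrays of day 1, 3 of day 3, 1 of day 5 and 2 of day 7, and 5 eye arrays. Their part was measured by leaving them out in the limma comparisons and counts of calls for WntA. Overlaps, ranks, the order of levels, correlations and the values of other features were computed with these arrays kept.

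WntA was high in all wing sections on day 1 and lower from day 3 on. In the scaffold set, the 18 wing arrays of day 1 lay between 7.67 and 9.62 with a median of 8.25, those of day 3 between 3.19 and 6.44 with a median of 5.16, those of day 5 between 3.31 and 5.78 with a median of 4.49, and those of day 7 between 3.75 and 5.17 with a median of 4.48. In the walk set, the day 1 wing arrays lay between 6.19 and 9.45 with a median of 7.70, those of day 3 between 3.57 and 6.22 with a median of 4.91, those of day 5 between 2.73 and 5.11 with a median of 3.91, and those of day 7 between 3.02 and 5.66 with a median of 3.85. Every wing array of day 1 was above every later wing array in the scaffold set, a separation shared by 0.421% of all features. For the walk set the lowest array of day 1, at 6.19, was just below the highest of day 3, at 6.22. The same course stood in the deposited linear intensities, with medians of 340, 35.9, 24.8 and 23.8 over the 4 days in the scaffold set and of 258, 29.2, 18 and 17.6 in the walk set.

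**Figure D1:**
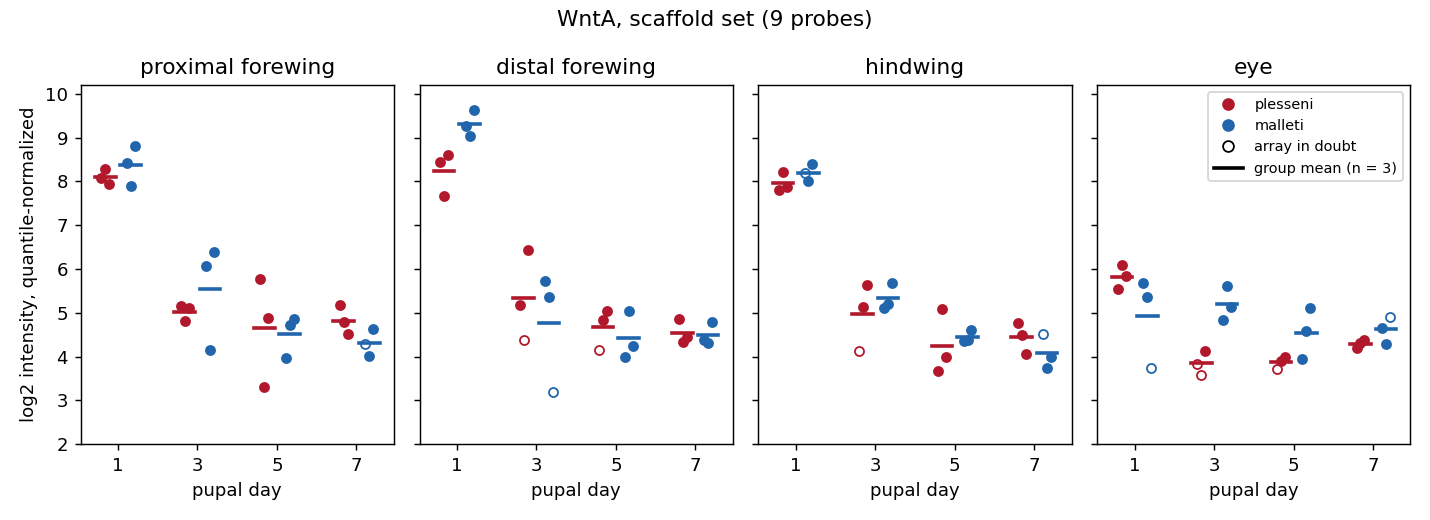
Log2 intensity of WntA in the scaffold set (y axis) on each pupal day (x axis) in the 4 tissues, with plesseni left of malleti within each day. Points are arrays, bars are the means of 3 arrays and open points are arrays in doubt; the wing arrays of day 1 all lie at 7.67 or above, over all later wing arrays.

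The mean over the wing was 5.16 ± 0.82 on day 3 against 8.36 ± 0.53 on day 1 in the scaffold set (SD, n = 18 each), a 9.23-fold fall (log2 change -3.21 ± 0.20, SE; limma, adjusted p = 8.3e-23). The walk set averaged 4.93 ± 0.79 on day 3 against 7.92 ± 0.85 on day 1 (SD, n = 18 each), a 7.93-fold fall (log2 change -2.99 ± 0.22, SE; limma, adjusted p = 3.28e-19). Both sets thus passed for a step at which 15.8% of all features fell and 13.9% rose. The size of the fall placed WntA far out among them, with a larger fall in 0.616% of features than in the scaffold set and in 0.826% than in the walk set. Leaving out the arrays in doubt gave log2 changes of -2.93 and -2.77. The slides were scanned at detector gains of 440 and 460, as read from the array names, and the change was -3.31 and -3.15 among the arrays of gain 440 and -3.17 and -2.74 among those of gain 460, with the scaffold set first. In a bulk sample, fewer cells that transcribe a gene and less transcript per cell cannot be told apart.

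Each wing section showed the fall. In the distal forewing the scaffold set lay between 3.19 and 6.44 on day 3, with a median of 5.27, against 7.67 to 9.62 on day 1, with a median of 8.81 (n = 6 each). No distal array of day 3 reached the level of day 1, and the change was the largest of the 3 sections, 13.2-fold (log2 change -3.72 ± 0.34, SE; limma, adjusted p = 5.56e-14). The proximal forewing fell 7.79-fold, with day 3 arrays at 4.16 to 6.38 against day 1 arrays at 7.89 to 8.80 (limma, adjusted p = 2.05e-10). The hindwing fell 7.65-fold, with day 3 arrays at 4.13 to 5.67 against day 1 arrays at 7.80 to 8.40 (limma, adjusted p = 3.1e-10). The walk set fell 10.8-fold in the distal forewing, 5.75-fold in the proximal forewing and 8.00-fold in the hindwing (limma, adjusted p = 3.51e-11, 3.25e-07 and 3.4e-09). At this step 8.27%, 6.55% and 5.81% of all features fell in the distal forewing, proximal forewing and hindwing. Whether the sections differ in the size of the fall was not tested. The distal log2 change in the scaffold set was -3.10 without the arrays in doubt, which include replicate 55, the lowest distal array of day 3. Among the arrays of gain 460 alone, the proximal fall did not pass in either set (log2 change -2.61 and -1.41; adjusted p = 0.354 and 0.987).

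**Figure D2:**
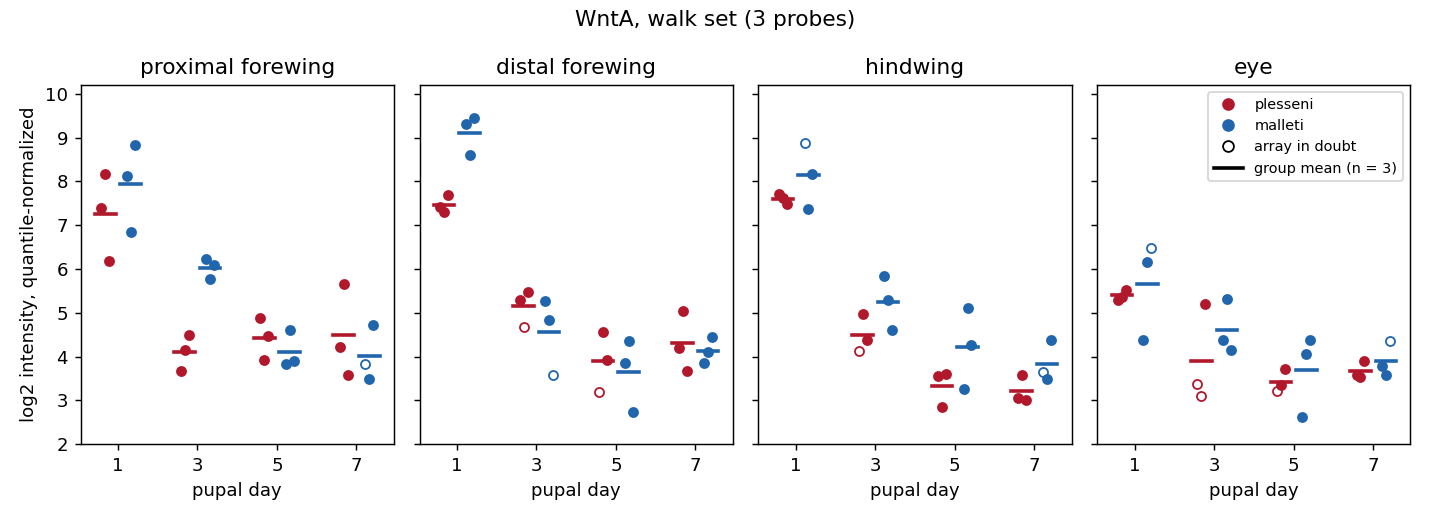
Log2 intensity of WntA in the walk set (y axis) on each pupal day (x axis) in the 4 tissues, with plesseni left of malleti within each day. Points are arrays, bars are the means of 3 arrays and open points are arrays in doubt; day 1 wings lie at 6.19 to 9.45 and the spread within groups is wider than in the scaffold set for the proximal forewing of day 1.

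After day 3 the wing level fell once more, by less. The day 5 mean was 4.49 ± 0.60 against 5.16 ± 0.82 on day 3 in the scaffold set (SD, n = 18 each), and the log2 change of -0.66 ± 0.20 (SE) passed (limma, adjusted p = 0.00474). The walk set had a day 5 mean of 3.94 ± 0.67 against 4.93 ± 0.79 on day 3 (SD, n = 18 each), with a log2 change of -0.99 ± 0.22 (SE; limma, adjusted p = 0.000133). At this step 23.2% of all features fell, and the ranges of the days overlap in both sets. The call of this second fall was lost in both sets on the deposited log2 scale (adjusted p = 0.278 in the scaffold set and 0.0723 in the walk set), after centring on array medians (0.0754 and 0.0513) and within each gain (0.22 and 0.0608 at 440, 0.471 and 0.157 at 460). From day 5 to day 7 neither set passed, with log2 changes of -0.05 (95% interval -0.44 to 0.35) in the scaffold set and 0.06 (-0.38 to 0.49) in the walk set, beside 13.1% of all features that passed (limma, adjusted p = 0.926 and 0.916). On days 5 and 7 the wing means of both sets, 3.94 to 4.49, lay below the 25th percentile of the arrays.

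Over the 12 steps of single tissues, the scaffold set passed at 3, which were the falls from day 1 to day 3 in the wing sections. The walk set passed at 6, namely these 3, the falls from day 3 to day 5 in the distal forewing and the hindwing (log2 change -1.08 and -1.09; limma, adjusted p = 0.033 and 0.0279) and the fall from day 1 to day 3 in the eye. The share of all features that passed at these last steps was 19.9%, 22.3% and 9.23%. It was 18.3% and 15% from day 3 to day 5 in the proximal forewing and the eye. From day 5 to day 7 it was 2.14%, 3.99%, 1.69% and 2.15% in the proximal forewing, distal forewing, hindwing and eye. The calls of the walk set from day 3 to day 5 were lost in the distal forewing and the hindwing on the deposited scale (adjusted p = 0.466 and 0.499), after centring (0.314 and 0.234) and at each gain, in the hindwing with the slide as a block (0.0534) and in the distal forewing with its groups alone (0.152). Leaving out any one of replicates 11, 12, 33, 42, 56 and 87 ended the distal call (adjusted p up to 0.134), and any one of 13, 31, 36 and 40 the hindwing call (up to 0.126). Without the arrays in doubt both calls stood, and the scaffold set also passed from day 3 to day 5 in the distal forewing and the hindwing (log2 change -0.99 and -1.01; adjusted p = 0.0256 and 0.00929). The shares of all features that passed in that fit are not given here.

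Ordered by the mean over both races, the 3 wing sections of day 1 led all 16 combinations of tissue and day in both sets. The distal forewing of day 1 stood first, at 8.77 ± 0.69 in the scaffold set and 8.29 ± 0.96 in the walk set (SD, n = 6 each). The proximal forewing of day 1 followed at 8.24 ± 0.34 and the hindwing at 8.08 ± 0.22 in the scaffold set (SD, n = 6 each). By the walk set the hindwing, at 7.87 ± 0.56, came before the proximal forewing, at 7.59 ± 0.97 (SD, n = 6 each). The next level down was the eye of day 1 in both sets, and the gap above it, 2.70 in the scaffold set and 2.06 in the walk set, was the one gap between neighbours in the order that exceeded the larger of their SDs. All other neighbours, down to the eye of day 5 at 4.21 ± 0.54 in the scaffold set and the hindwing of day 7 at 3.53 ± 0.49 in the walk set (SD, n = 6 each), differed by less than that spread.

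The eye held less WntA signal than the wing, and the difference lay mainly on day 1. Over all days the 24 eye arrays averaged 4.64 ± 0.76 and the 72 wing arrays 5.62 ± 1.73 in the scaffold set (SD), with a log2 difference of -0.98 ± 0.14 (SE; limma, adjusted p = 1.63e-08). In the walk set the difference was -0.91 ± 0.15 (SE; limma, adjusted p = 9.21e-07), and 30.7% of all features were lower in the eye. The median over all features was -0.16 for this comparison, 0.03 on the deposited scale and -0.40 after centring on array medians, and WntA stayed below it on each scale. In the scaffold set the call was lost on the deposited scale (log2 difference -0.49; adjusted p = 0.103), and at gain 460 it was lost in both sets (adjusted p = 0.0676 and 0.185). On day 1 the 3 plesseni eyes had 5.54, 5.85 and 6.08 and the 3 malleti eyes had 3.74, 5.37 and 5.68 in the scaffold set, all below the lowest wing of that day at 7.67, a separation found for 0.74% of features. The day 1 eyes of the walk set lay between 4.37 and 6.47, overlapping the wings at their lowest array. The eye was 7.91-fold lower than the wing on day 1 in the scaffold set (log2 difference -2.98 ± 0.28, SE; limma, adjusted p = 1.77e-13) and 5.23-fold lower in the walk set (-2.39 ± 0.31, SE; adjusted p = 4.63e-09), beside 7.63% of features that were lower. At gain 460 alone these did not pass (log2 difference -2.18 and -2.14; adjusted p = 0.421 and 0.609).

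On later days the difference between eye and wing did not pass. The log2 differences were -0.64 (95% interval -1.20 to -0.08) on day 3, -0.29 (-0.84 to 0.27) on day 5 and 0.01 (-0.55 to 0.57) on day 7 in the scaffold set, with limma's adjusted p at 0.0672, 0.472 and 0.986. They were -0.68 (-1.29 to -0.06), -0.38 (-1 to 0.23) and -0.21 (-0.82 to 0.41) in the walk set, with adjusted p at 0.0825, 0.368 and 0.673. On these 3 days 33.9%, 32.2% and 24.2% of all features passed. On days 5 and 7 the means of both organs lay below the 25th percentile of 4.55, so a difference may not show there. The eye means of these days were 4.21 and 4.46 in the scaffold set and 3.56 and 3.79 in the walk set. Leaving out single arrays moved the day 3 value to a pass 5 times in the scaffold set and 3 times in the walk set. With the scaffold set first, the adjusted p went down to 0.0135 without replicate 55 and to 0.00864 without replicate 82. It went up to 0.175 without replicate 7 and to 0.311 without replicate 60. Without the arrays in doubt 1 plesseni eye of day 3 is left, and the difference was -0.78 and -0.17. On the deposited scale it was -0.39 and -0.46, beside a median of -0.43 over all features. After centring on array medians it was -0.19 and -0.26, beside -0.24. From day 1 to day 3 the eye itself changed by -0.86 ± 0.34 in the scaffold set (SE; limma, adjusted p = 0.0971), with day 3 eyes at 3.58 to 5.6 against day 1 eyes at 3.74 to 6.08, and by -1.27 ± 0.38 in the walk set (SE; adjusted p = 0.022). The eye call in the walk set was lost without the arrays in doubt (log2 change -0.42; adjusted p = 0.609) and without any one of replicates 7, 8, 51, 60, 73, 74 and 81 (adjusted p up to 0.1), while the scaffold set passed without replicate 73 (-1.16; adjusted p = 0.0204) or 82 (-0.93; 0.0491). The day 1 to day 3 fall of the wing exceeded that of the eye by 2.34 ± 0.40 on the log2 scale in the scaffold set and 1.71 ± 0.44 in the walk set (SE; limma test of the difference, adjusted p = 2.78e-05 and 0.00667), where 4.13% of all features had a positive difference that passed. These calls were lost on the deposited scale (adjusted p = 0.0609 and 0.196) and at gain 460 (0.941 in both sets), and that of the walk set at gain 440 (0.186). The step difference equals the eye minus wing difference of day 3 less that of day 1, so it is not a separate result. The eye mean of day 3, 4.51 in the scaffold set and 4.26 in the walk set, lay below the 25th percentile of 4.55. Without the arrays in doubt it was 4.92 and 4.76.

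Within the forewing neither set passed between the 2 sections. The distal forewing averaged 5.72 ± 1.93 against 5.67 ± 1.66 in the proximal forewing in the scaffold set (SD, n = 24 each), with a log2 difference of 0.06 and a 95% interval of -0.28 to 0.40 (limma, adjusted p = 0.945). In the walk set the difference was -0.01, with an interval of -0.39 to 0.37 (adjusted p = 0.989), and 0.522% of all features passed. Day by day, 0 of 4 comparisons passed in either set with limma, and 0 of 4 had an unadjusted p below 0.05, beside 1.04%, 0.0623%, 0% and 0.0701% of all features that passed on days 1, 3, 5 and 7. The day 1 value was the largest of the 4 in both sets, at 0.53 (-0.15 to 1.22) in the scaffold set and 0.70 (-0.06 to 1.45) in the walk set. The hindwing did not pass against the forewing either, with log2 differences of -0.24 (-0.53 to 0.06) and -0.28 (-0.60 to 0.05) in the scaffold and walk sets (limma, adjusted p = 1 for each), in a comparison that 0.0546% of features passed.

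**Figure D3:**
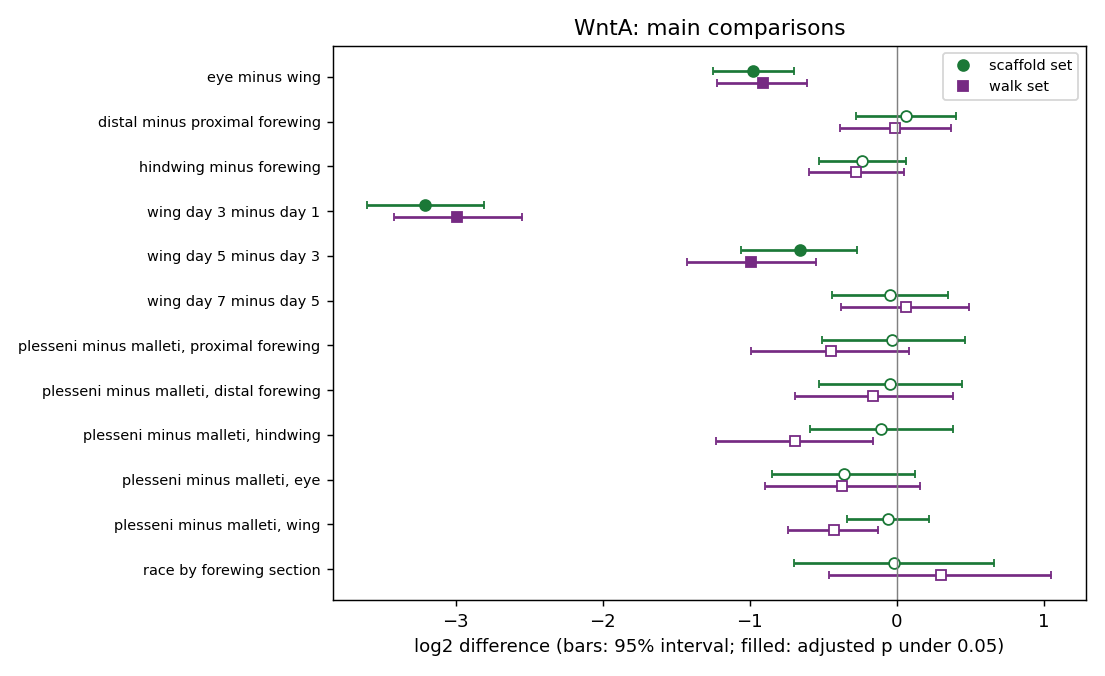
Log2 differences (x axis) for the 12 main comparisons (rows) in the scaffold set and the walk set. Bars are 95% intervals and filled marks have an adjusted p below 0.05; the filled marks are eye minus wing and the wing steps to day 3 and to day 5.

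No race difference in WntA passed when the days were averaged. In the distal forewing, plesseni averaged 5.70 ± 1.65 against 5.75 ± 2.25 in malleti in the scaffold set (SD, n = 12 each), a log2 difference of -0.05 with an interval of -0.53 to 0.44 (limma, adjusted p = 0.987). In the proximal forewing the means were 5.65 ± 1.59 in plesseni and 5.68 ± 1.80 in malleti (SD, n = 12 each), a difference of -0.03 (-0.51 to 0.46). The hindwing gave -0.11 (-0.59 to 0.38) and the eye -0.36 (-0.85 to 0.12) in the scaffold set. Differences in the walk set were -0.16 (-0.69 to 0.38) for the distal forewing, -0.45 (-0.99 to 0.08) in the proximal forewing, -0.69 (-1.23 to -0.16) in the hindwing and -0.37 (-0.90 to 0.16) in the eye. None of these 8 passed, with limma's adjusted p from 0.414 to 1, although the hindwing in the walk set had an unadjusted p of 0.0117. Over the 3 wing sections together the walk set was at 4.98 ± 1.60 in plesseni and 5.41 ± 1.95 in malleti (SD, n = 36 each), a difference of -0.43 ± 0.15 (SE; unadjusted p = 0.00643) that did not pass over all features (limma, adjusted p = 0.199). The scaffold set gave -0.06 ± 0.14 for the same comparison (SE; adjusted p = 0.928). The shares of all features that passed between races were 0%, 0.0312%, 0% and 0.966% in the distal forewing, proximal forewing, hindwing and eye, and 1.08% over the wing. The difference of the race differences, distal minus proximal forewing, did not pass either, at -0.02 ± 0.34 in the scaffold set and 0.30 ± 0.38 in the walk set (SE; limma, adjusted p = 0.999 each), a test that 0% of features passed.

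On single days the widest gap between races at the day of high signal was in the distal forewing. The scaffold set had 7.67, 8.45 and 8.59 in plesseni distal forewings of day 1, against 9.04, 9.27 and 9.62 in malleti. The walk set had 7.29, 7.42 and 7.68 in plesseni, against 8.59, 9.30 and 9.45 in malleti. The races did not overlap in either set, which held in this direction for 13.9% of all features. The log2 difference was -1.07 ± 0.48 in the scaffold set (SE; unadjusted p = 0.0299) and -1.65 ± 0.53 in the walk set (SE; unadjusted p = 0.00292), and neither passed over all features (limma, adjusted p = 1 and 0.354), a test that 0.14% of features passed. With only these 6 arrays in the fit the walk set passed (adjusted p = 0.0255) and the scaffold set did not (0.115). The share of 0.14% belongs to the fit of all 96 arrays, and that of the 6-array fit is not given here. At gain 440 the race difference was -1.02 in the scaffold set and -1.46 in the walk set, without a call. At gain 460 it was -1.17 and -2.03, from replicate 4 of plesseni and replicate 53 of malleti alone. This comparison was singled out after its values were seen.

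In the other sections of day 1 the races lay closer together. The proximal forewing had 7.95, 8.08 and 8.29 in plesseni against 7.89, 8.41 and 8.80 in malleti in the scaffold set, and 6.19, 7.39 and 8.16 against 6.85, 8.12 and 8.84 in the walk set. The hindwing had 7.80, 7.88 and 8.21 in plesseni against 8.00, 8.18 and 8.40 in malleti in the scaffold set, and 7.49, 7.61 and 7.72 against 7.36, 8.17 and 8.87 in the walk set. The races overlapped in each of these. The race difference of day 1, distal minus proximal forewing, was -0.81 ± 0.68 in the scaffold set and -0.96 ± 0.76 in the walk set (SE; limma, adjusted p = 1 each), where 0.101% of features passed. Set against the mean of the later days in the distal forewing, the race difference of day 1 was -1.37 ± 0.56 in the scaffold set and -1.99 ± 0.62 in the walk set (SE; unadjusted p = 0.0169 and 0.00192; limma, adjusted p = 1 and 0.5), where 0.0234% of features passed.

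Of the 16 race comparisons by tissue and day, the scaffold set passed at 1, the eye of day 3, and the walk set at 0, with 2 in each set at an unadjusted p below 0.05 (limma). Of all features, 0.538%, 0.234%, 0.00779% and 0.0312% passed between races on days 1, 3, 5 and 7 in the proximal forewing, 0.14%, 0.0234%, 0.00779% and 0% for the distal forewing, 0.0156%, 0.0857%, 0.0156% and 0.0234% in the hindwing, and 1.54%, 31.2%, 0.0234% and 0.0156% in the eye. The eye of day 3 had 3.58, 3.82 and 4.13 in plesseni against 4.83, 5.14 and 5.6 in malleti in the scaffold set, with no overlap, as for 14.7% of all features in this direction. The log2 difference was -1.34 ± 0.48 (SE; limma, adjusted p = 0.0276), beside 31.2% of all features that passed there. The plesseni arrays include the dim replicates 8 and 60, at 3.82 and 3.58. The walk set had 3.11, 3.38 and 5.2 in plesseni against 4.15, 4.37 and 5.32 in malleti (limma, adjusted p = 0.32). Without the arrays in doubt 1 plesseni eye of day 3 is left, replicate 82, and the log2 difference in the scaffold set was -1.06. The call in the scaffold set was lost without replicate 8, 59, 60 or 81 alone (adjusted p = 0.0823, 0.115, 0.124 and 0.0574). The difference turned to 0.32 after centring on array medians. At gain 440 and 460 it was -1.16 and -1.74, without a call (adjusted p = 0.203 and 0.42). The smallest p of the walk set was in the proximal forewing of day 3, with 3.68, 4.16 and 4.49 in plesseni against 5.76, 6.09 and 6.22 in malleti and no overlap, as for 7.49% of all features in this direction. That difference of -1.92 ± 0.53 (SE; limma, adjusted p = 0.128) passed without the arrays in doubt (adjusted p = 0.0412), although none of its own 6 arrays is among them. The scaffold set, with 4.81, 5.10 and 5.15 in plesseni against 4.16, 6.07 and 6.38 in malleti, gave -0.52 ± 0.48 (SE; adjusted p = 1). The share of 0.234% for this section and day belongs to the fit of all 96 arrays. That of the fit without the arrays in doubt is not given here. On days 5 and 7 the wing arrays of both races lay between 3.31 and 5.78 in the scaffold set, and the races overlapped in 6 of 6 comparisons of a wing section and day there.

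The 2 probe sets followed each other over the series. Their 32 group means had a Pearson r of 0.968, and each set was the feature most like the other among all 12832. This is a description over groups that share arrays and normalization. The walk value was below the scaffold value on 77 of 96 arrays, with a median difference, walk minus scaffold, of -0.46. This compares sets of 3 and 9 probes and says nothing of transcript level. Whether the sets share probes was not given in the sources used here. On 17 arrays the sets differed by more than 1, and the difference ran from -2.23 to 2.72, the last on replicate 73, a dim malleti eye of day 1 at 6.47 in the walk set and 3.74 in the scaffold set.

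**Figure D4:**
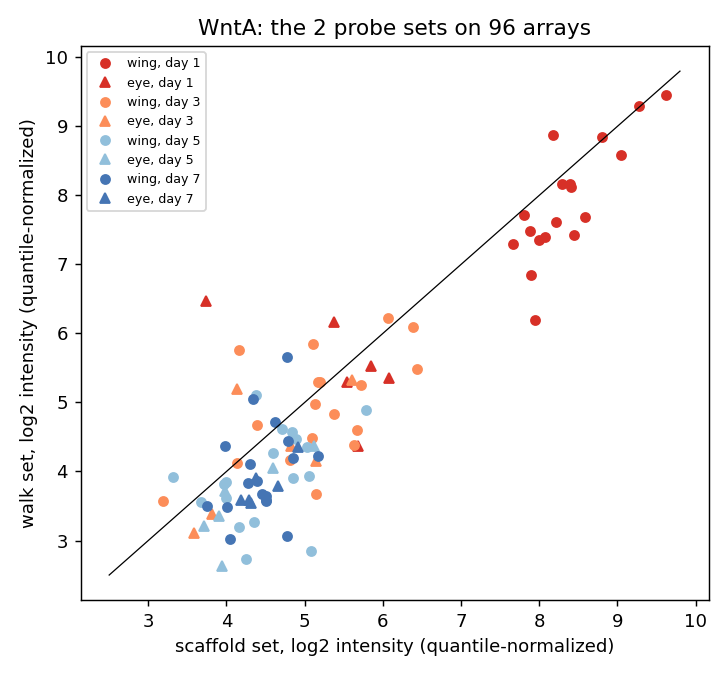
Log2 intensity of the walk set (y axis) against the scaffold set (x axis) on the 96 arrays, coloured by day, with circles for wings and triangles for eyes and a line of equal values. The wing arrays of day 1 form a group of their own at 7.67 to 9.62 in the scaffold set; the eye of day 1 at 3.74 and 6.47 is replicate 73.

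Next in likeness to the scaffold set over the 32 group means were the predicted gene at 62394 to 67211 on HE671447, with r = 0.958, and that at 39700 to 44413 on HE670102, with r = 0.948. The HE671447 feature had wing means of 7.54, 5.23, 4.30 and 4.32 on days 1, 3, 5 and 7, and eye means of 5.71, 4.81, 4.42 and 4.25. It also came next in likeness to the walk set, with r = 0.942, followed by the predicted gene at 23019 to 24461 on HE669468, with r = 0.938. Wing means of the HE669468 feature were 10.35 on day 3 against 12.42 on day 1. The files give these features no names, and none is on the scaffold of WntA.

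Of the 15 other predicted transcripts of the AC walk, 1 fell and 2 rose between days 1 and 3 of the wing, and their median log2 change was 0.05, against -0.01 over all features, of which 15.8% fell and 13.9% rose. Of the 26 other features on HE668478, 4 fell and 3 rose, with a median of -0.04, shares near those over all features. All 15 walk features have the start and end of a feature among these 26, so the lists are not separate. The nearest feature after WntA, at 486270 to 489436 and 2.4 kb away, was the 1 walk feature that fell. Its wing mean was 3.90 on day 3 against 5.33 on day 1 in its scaffold set (log2 change -1.43; limma, adjusted p = 1.12e-10) and 3.85 against 5.41 in its walk set (-1.56; adjusted p = 3.68e-09). Its group means had an r of 0.903 with the scaffold set of WntA and, in its walk set, 0.751 with the walk set of WntA. Larger falls than that of this feature were found 315.2 and 344.2 kb before WntA on HE668478 (log2 change -2.42 and -1.82; limma, adjusted p = 2.53e-10 and 4.91e-09). The nearest feature before WntA, at 403080 to 405490 and 44.9 kb away, changed by -0.24 in its scaffold set and -0.40 in its walk set at this step (limma, adjusted p = 0.575 and 0.196).

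**Figure D5:**
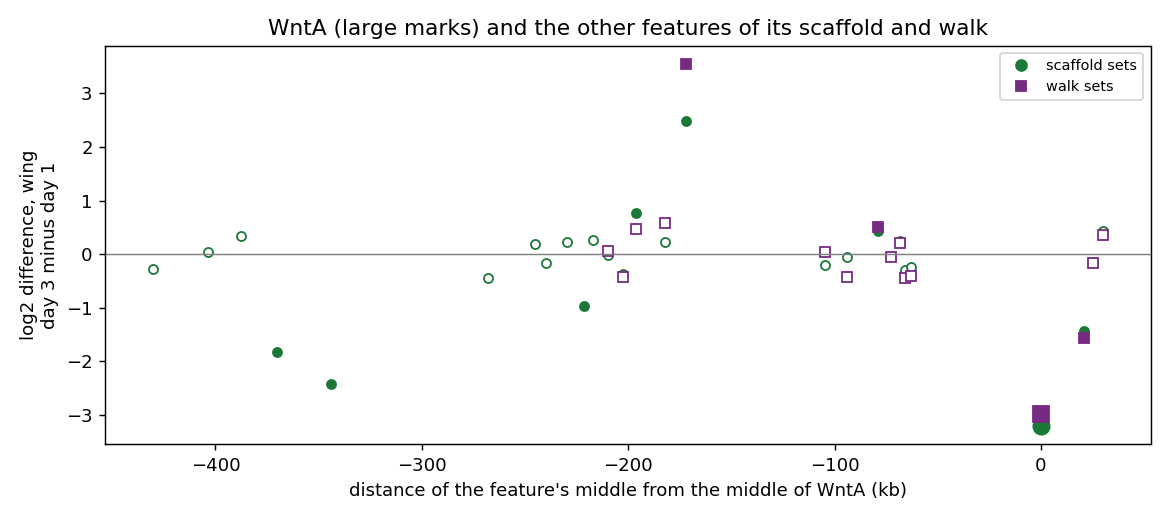
Log2 difference in the wing, day 3 minus day 1 (y axis), for the features of the scaffold and of the AC walk against their distance from the middle of WntA in kb (x axis). Large marks are WntA, at -3.21 and -2.99, and filled marks have an adjusted p below 0.05; the nearest feature on the right lies at -1.43 and -1.56, and the feature furthest above 0 is at 2.48 and 3.55.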

How the data were processed

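RNA of pupal wings and eyes of 2 races was measured on 96 one-colour Cy3 arrays. Per the submitters' processing notes the authors summarised the probes of each feature with RMA, and they deposited the result as a linear intensity. The settings of RMA and the assembly used were not given in the sources used here. Groups and replicate numbers came from the titles, and slide and detector gain from the array names.

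The log2 of each deposited intensity was quantile-normalized over all arrays in limma version 3.58.1 (R version 4.3.3). A model of 32 group means, with 64 residual degrees of freedom, was fitted to all 12832 features and tested with eBayes, adjusting p-values over all features within each contrast by Benjamini-Hochberg at a threshold of 0.05. Arrays were treated as independent, since shared animals are not stated, and the p-values measure the spread between these samples. The procedure was tested on simulated data with independent noise and falls planted in the wings of day 3. These simulated data had no dim arrays and no effects of slide or gain, and no race or eye difference was planted.

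The members, the lists and the arrays in doubt were chosen with earlier results of these data known. By rule, the named features are the 2 most like each set and the nearest on each side, and single comparisons are given in full where they passed in at least 1 set or had the smallest p of their family. The larger falls elsewhere on HE668478 were added after the values were seen. The comparisons of eye with wing by day and by step, and of races in the distal forewing of day 1, were added after the values were seen. Of the feature identifiers, 0 were found in the RefSeq gene table (assembly ASM5695672v1), so a list of Wnt pathway genes was not tested. Alternatives were no quantile normalization, centring each array on its median, a slide block, each gain by itself (in a model without race by day terms, and, added after seeing the data, from group means for races by tissue and day), omission of the arrays in doubt, the compared groups by themselves, omission of the lowest 25% of features by mean, eBayes with trend and robust settings, and omission of each array in turn with the normalization kept. The number of arrays limits the precision.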

Additional observations from a re-analysis of the deposited data

Results flagged for a closer look

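The fall of WntA from day 1 to day 3 differed between eye and wing. The eye step minus the wing step was 2.34 on the log2 scale in the scaffold set and 1.71 in the walk set (limma test of the difference, adjusted p = 2.78e-05 and 0.00667). Without the arrays in doubt, 3 of which are eyes of days 1 and 3, the differences were 1.91 and 2.35. That setting leaves 1 plesseni eye of day 3. Both calls were lost on the deposited scale (2.09 and 1.71; adjusted p = 0.0609 and 0.196) and at gain 460 (1.47 and 1.65; 0.941 each), and the walk set call also at gain 440 (1.55; 0.186). The step difference equals the eye minus wing difference of day 3 less that of day 1, so it restates the gap of day 1 in part. With all arrays, the eye mean of day 3 lay below the 25th percentile in both sets.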

How the results depend on the processing

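The fall of WntA in the wing from day 1 to day 3 kept its direction and its call in both sets under the 9 planned settings and with each array left out. Of 588 values recomputed under other settings, 495 kept direction and call, and of 2316 with 1 array left out, 2207 did. Omitting the lowest features and the trend and robust settings changed no direction or call. The cause of the changes below was not tested. Shares of all features that passed under the other settings are given only where stated. No paired analysis was possible because each replicate number from 1 to 96 occurs once.

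On the deposited scale, eye minus wing (-0.49) and the day 5 step of the wing (-0.48) lost their calls in the scaffold set, as did that step in the walk set (-0.77) and the eye minus wing step difference of day 3 (2.09 in the scaffold and 1.71 in the walk set). Signs turned for race in the proximal forewing (0.15) and eye minus wing of day 5 (0.19) in the scaffold set, and for distal minus proximal forewing (0.18), race by section (-0.13) and eye minus wing of day 7 (0.23) in the walk set. The walk set passed at 3 day steps of single tissues, as it did with centring and at gain 440.

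With centring, the day 5 step of the wing lost its call (-0.45 and -0.74). In the scaffold set the sign turned for race in the proximal forewing (0.11), in the eye (0.14) and in the eye of day 3 (0.32), for eye minus wing of day 7 (-0.09) and for the day 5 step difference (-0.34), and 0 race comparisons passed. In the walk set it turned for distal minus proximal forewing (0.09), the day 7 step (-0.28), race in the eye (0.39) and in the eye of day 3 (1.06), race by section (-0.11) and the day 5 step difference (-0.53). With the slide as a block, the day 7 step (0.02) and eye minus wing of day 7 (-0.03) turned in the scaffold set, and the walk set lost the day 5 step of the hindwing (-1.01).

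Without the arrays in doubt, race in the hindwing (0.05) and eye minus wing of day 7 (-0.03) turned in the scaffold set, which passed at 5 day steps and 0 race comparisons. In the walk set distal minus proximal forewing (0.11), race in the eye (0.14), race in the eye of day 3 (0.59) and the day 5 step difference (-0.22) turned, and 1 race comparison passed. The eye of day 3 had 1 plesseni array left in this setting. With the compared groups alone, 0 race comparisons passed in the scaffold set and 1 in the walk set.

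At gain 440 the day 5 step of the wing lost its call (-0.44 and -0.80), as did the day 3 step difference in the walk set (1.55). Signs turned in the scaffold set for the day 7 step (0.01), race in the proximal forewing (0.31), eye minus wing of day 7 (-0.12) and the day 5 step difference (-0.03), and in the walk set for the day 7 step (-0.03) and race by section (-0.36). At gain 460, with 36 arrays, calls were lost for eye minus wing (-0.86 and -0.74), its day 1 value (-2.18 and -2.14), the day 5 step (-0.75 and -1.39) and the day 3 step difference (1.47 and 1.65), and the walk set passed at 2 day steps. Signs turned there in the scaffold set for distal minus proximal forewing (-0.0041), hindwing minus forewing (0.02), the day 7 step (0.09), race in the distal forewing (0.72) and hindwing (0.20), race by section (1.72) and eye minus wing of day 7 (-0.23), and in the walk set for distal minus proximal forewing (0.15) and race in the distal forewing (0.41). Race comparisons by tissue and day were computed within each gain from group means, an alternative chosen after seeing the data, in which a lone array is assumed to vary like the other groups. At gain 440 neither set passed at any of 15 (limma, 0 and 2 at an unadjusted p below 0.05). At gain 460, with 8 residual degrees of freedom, the scaffold set passed at 1 of 12, the distal forewing of day 3 (2.61, adjusted p = 0.0291, beside 18.1% of all features), and the walk set at 0 (0 unadjusted). The malleti array there is replicate 55, which is in doubt.

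With 1 array left out, the scaffold set ranged from -0.03 to 0.15 for distal minus proximal forewing, -0.16 to 0.05 for the day 7 step, -0.20 to 0.14 and -0.24 to 0.07 for race in the proximal and distal forewing, -0.22 to 0.15 for race by section and -0.06 to 0.09 for eye minus wing of day 7. The walk set ranged from -0.08 to 0.06 for distal minus proximal forewing and -0.04 to 0.14 for the day 7 step. Either set passed at 0 to 1 race comparisons.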
